A study of Mus musculus with 15 samples.

Results

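Broad H3K4me3 domains of control αTN4 cells were defined by joining the H3K4me3 peaks that lie within 1000 bp of each other and keeping the joined domains of at least 3000 bp. Of 11136 joined domains, made from 14869 peaks, 441 were broad, or 3.96%. They held 1.71 Mb, which is 11.1% of the joined length. Membership rests on the width of the control H3K4me3 domains, so that width, the number of peaks joined and the strength of those peaks are given as a description.

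The cell line αTN4 was derived from mouse lens epithelium and carries the large T antigen of the virus SV40, which keeps it dividing. The control cells carry a control shRNA and the Pax6 KD cells an shRNA against Pax6, both delivered by lentivirus and kept under puromycin as stable pools. Used here were the lists of H3K4me3, H3K4me2 and H3K4me1 regions of both kinds of cells, the Pax6 and RNA polymerase II (Pol2) peaks of control cells, and the H3K4me2 peaks of lenses of CD-1 mice at postnatal day 1. Each condition has 1 library, so no replicate error and no test can be given, and the 95% Wilson intervals of shares cover counting error only. Libraries were assigned by title, since another label names the Pax6 and Pol2 antibodies the other way round. The efficiency of the knockdown was not analysed here. The depth of the libraries is unknown. The control H3K4me3 list holds 14869 peaks covering 14.4 Mb and the KD list 14301 peaks covering 13.2 Mb.

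Trimethylation of lysine 4 of histone H3 is laid down by Set1 and Mll methyltransferases and marks the starts of active genes, usually just downstream of the first transcribed bases. At most genes it covers the nucleosomes next to the start. At a minority, often genes that define the identity of a cell, it spreads into the body of the gene. H3K4me1 lies at the flanks of such regions and at enhancers, and H3K4me2 covers both. Pax6 is the paired-domain transcription factor that directs lens and eye formation.

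The following sequences come from the 4 widest domains that contain the start of a protein-coding gene. Each is the stretch of 300 bases, free of annotated untranslated exon, that lies nearest to the strongest H3K4me3 summit of its domain (mm9, read in the direction of the gene, CG in capitals). They are shown because H3K4me3 is usually found on CG-rich DNA.
Pax6, chr2:105516996-105517295, plus strand: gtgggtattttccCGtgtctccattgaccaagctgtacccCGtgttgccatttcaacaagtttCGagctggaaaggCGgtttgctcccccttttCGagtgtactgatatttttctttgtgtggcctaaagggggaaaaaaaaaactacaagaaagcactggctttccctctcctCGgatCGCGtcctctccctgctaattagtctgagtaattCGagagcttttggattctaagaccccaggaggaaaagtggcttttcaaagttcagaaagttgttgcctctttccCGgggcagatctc
Tnrc18, chr5:143578651-143578950, minus strand: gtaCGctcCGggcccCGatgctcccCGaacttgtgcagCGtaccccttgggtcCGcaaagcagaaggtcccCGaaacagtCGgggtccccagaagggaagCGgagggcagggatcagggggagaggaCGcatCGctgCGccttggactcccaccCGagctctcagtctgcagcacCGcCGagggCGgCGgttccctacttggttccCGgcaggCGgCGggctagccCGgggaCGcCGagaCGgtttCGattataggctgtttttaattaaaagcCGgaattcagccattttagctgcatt
Pcdh17, chr14:84845902-84846201, plus strand: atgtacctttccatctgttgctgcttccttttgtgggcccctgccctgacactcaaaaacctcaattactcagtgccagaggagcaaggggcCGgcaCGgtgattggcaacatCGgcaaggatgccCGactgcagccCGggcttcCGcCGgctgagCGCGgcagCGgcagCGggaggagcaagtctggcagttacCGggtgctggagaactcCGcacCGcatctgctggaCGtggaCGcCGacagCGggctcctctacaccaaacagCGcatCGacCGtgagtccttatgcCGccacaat
Meis2, chr2:115888853-115889152, minus strand: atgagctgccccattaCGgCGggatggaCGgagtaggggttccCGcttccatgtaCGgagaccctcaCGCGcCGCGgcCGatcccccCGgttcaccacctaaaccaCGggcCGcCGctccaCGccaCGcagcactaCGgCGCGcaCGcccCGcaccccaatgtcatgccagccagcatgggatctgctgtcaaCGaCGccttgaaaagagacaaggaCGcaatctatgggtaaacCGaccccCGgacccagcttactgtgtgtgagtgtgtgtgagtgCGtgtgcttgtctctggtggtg
The stretch of Pax6 is intronic, lies 403 bp from the summit by its centre, and holds 10 CG. That of Tnrc18 is also intronic and holds 26. Those of Pcdh17 and Meis2 overlap coding exons and hold 22 and 27. Over all broad domains, the median number of CG in the 300 bases centred on the summit was 19, against 20 in domains of 2000 to under 3000 bp and 13 in domains under 500 bp.

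The widest domain was that of Pax6 itself. It ran 14566 bp on chromosome 2 from 105509037 to 105523602 and joined 8 peaks of 283 to 3450 bp, whose fold enrichments over background lay between 3.46 and 21.0. It began 16 bp before the first annotated start of Pax6 and contained 18 start positions of the gene. It was 1.72 times as wide as the next domain, that of Tnrc18, with 8485 bp. This order rests on joining: without it, the widest peak at Pax6 had 3450 bp and 60 regions were wider, with Smad7 first at 6106 bp. The following protein-coding genes in this order were Pcdh17 with 8466 bp, Meis2 with 8130, Tcfap2a (AP-2α) with 7793, Lmo4 with 7590, Brd2 with 7344, Smad7 with 7133, Tgif1 with 6908 and Meis1 with 6576. Meis1 and Meis2 are TALE homeodomain factors that act upstream of Pax6 in the lens placode, Tcfap2a is needed for lens separation, and Tgif1 and Smad7 restrain TGF-β signalling. The other domains among the 12 widest contained no protein-coding start, one on chromosome 15 with 7331 bp and one over the noncoding RNA Malat1 with 7184 bp.

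**Figure D1:**
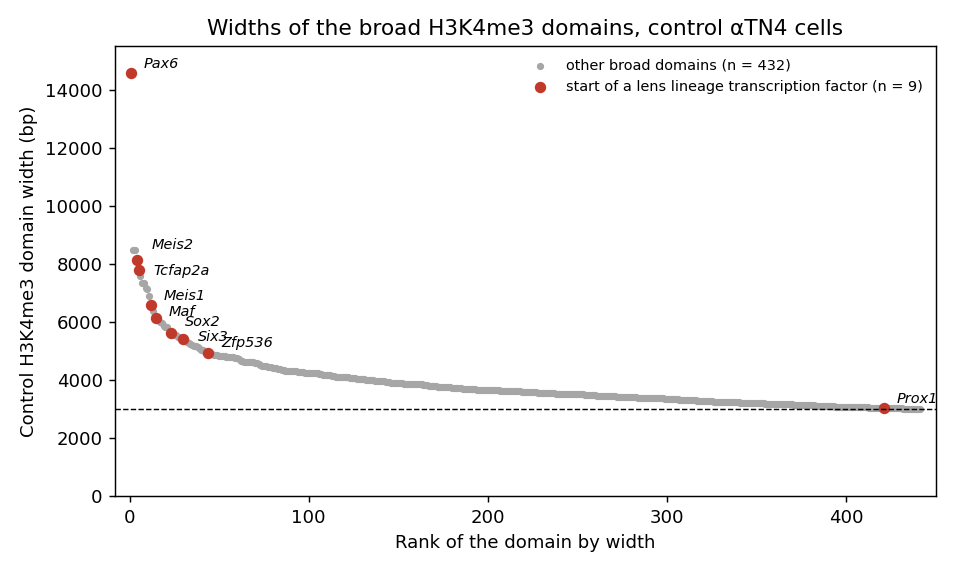
Width in bp of each of the 441 broad H3K4me3 domains of control αTN4 cells, in order of width. Red points are the 9 domains with a start of a lens lineage transcription factor, the dashed line is the 3000 bp minimum, and the Pax6 domain with 14566 bp, made by joining 8 peaks, stands apart from all others.

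Beyond these, widths fell off quickly. The median was 3603 bp, with quartiles of 3249 and 4163 bp, while the median over all joined domains was 1236 bp. At least 4000 bp was reached by 134 domains, at least 5000 bp by 41, at least 6000 bp by 16 and at least 8000 bp by 4. Joining mattered for most of them: 60 were a single peak, 199 joined 2 peaks, 123 joined 3 and 59 joined 4 or more. In domains of several peaks, the median sum of the gaps was 481 bp. Over all broad domains, single peaks included, gaps made up a median of 11.2% of the length. Around the minimum width there was no break. Rps12 (3004 bp), Dyrk1a (3005 bp) and Tlk2 (3008 bp) lay just inside, and the domain shared by Rpl18 and Sphk2 (2997 bp), Myst4 (2992 bp) and Id1 (2986 bp) just outside. The fold enrichment of the strongest peak had a median of 29.0 over broad domains and 21.3 over all joined domains.

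The start of a protein-coding gene lay inside 398 of the 441 broad domains (90.2%, 87.1 to 92.7), against 70.1% of all joined domains and 92.5% of those of 2000 to under 3000 bp. One gene started in 297 of them, 2 genes in 96 and 3 or more in 5. Starts on both strands were found in 95 broad domains, or 21.5%, against 8.89% of all joined domains and 23.7% of those of 2000 to under 3000 bp. The share of domains with a start therefore did not go on rising above 3000 bp.

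The domains extended mostly into the gene. In the 297 domains with the start of 1 gene, a median of 952 bp lay upstream of the first start and 2686 bp downstream of it. More length lay downstream than upstream in 258 of them (86.9%, 82.6 to 90.2). Domains of 1000 to under 2000 bp had medians of 378 bp upstream and 1048 bp downstream, and 92.3% had more length downstream. The lengths of both sides add up to the width that chose the domains, so they are a description. At Sox2, the domain ran 5615 bp, and at Six3, 5398 bp.

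Counted by genes, 504 of 22202 protein-coding genes, or 2.27%, started in a broad domain. Among the 8676 genes with any H3K4me3 domain at a start, the share was 5.81%. The gene lists are read against these shares, and several of them share genes.

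Lens lineage transcription factors accounted for 4 of the 12 widest domains. Of 30 annotated, 18 had H3K4me3 at a start and 9 started in a broad domain (50% of the marked genes, 29.0 to 71). In order of width these were Pax6, Meis2, Tcfap2a, Meis1, Maf with 6129 bp, Sox2 with 5615, Six3 with 5398, Zfp536 with 4935 and Prox1 with 3037. Of these, Pax6, Zfp536 and Prox1 are also on the study's own list, which was chosen on these samples. The lens list was drawn up with earlier results of these data known, so its share is a description. Maf switches on crystallin genes in fibre cells, Sox2 acts with Pax6 on early lens enhancers, and Prox1 drives fibre elongation. The other 9 marked members were narrower, from Mafg with 2663 bp and Gata3 with 2637 bp down to Pitx3 with 693 bp. The remaining 12 had no H3K4me3 at a start, among them Foxe3, Hsf4 and Eya1.

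**Figure D2:**
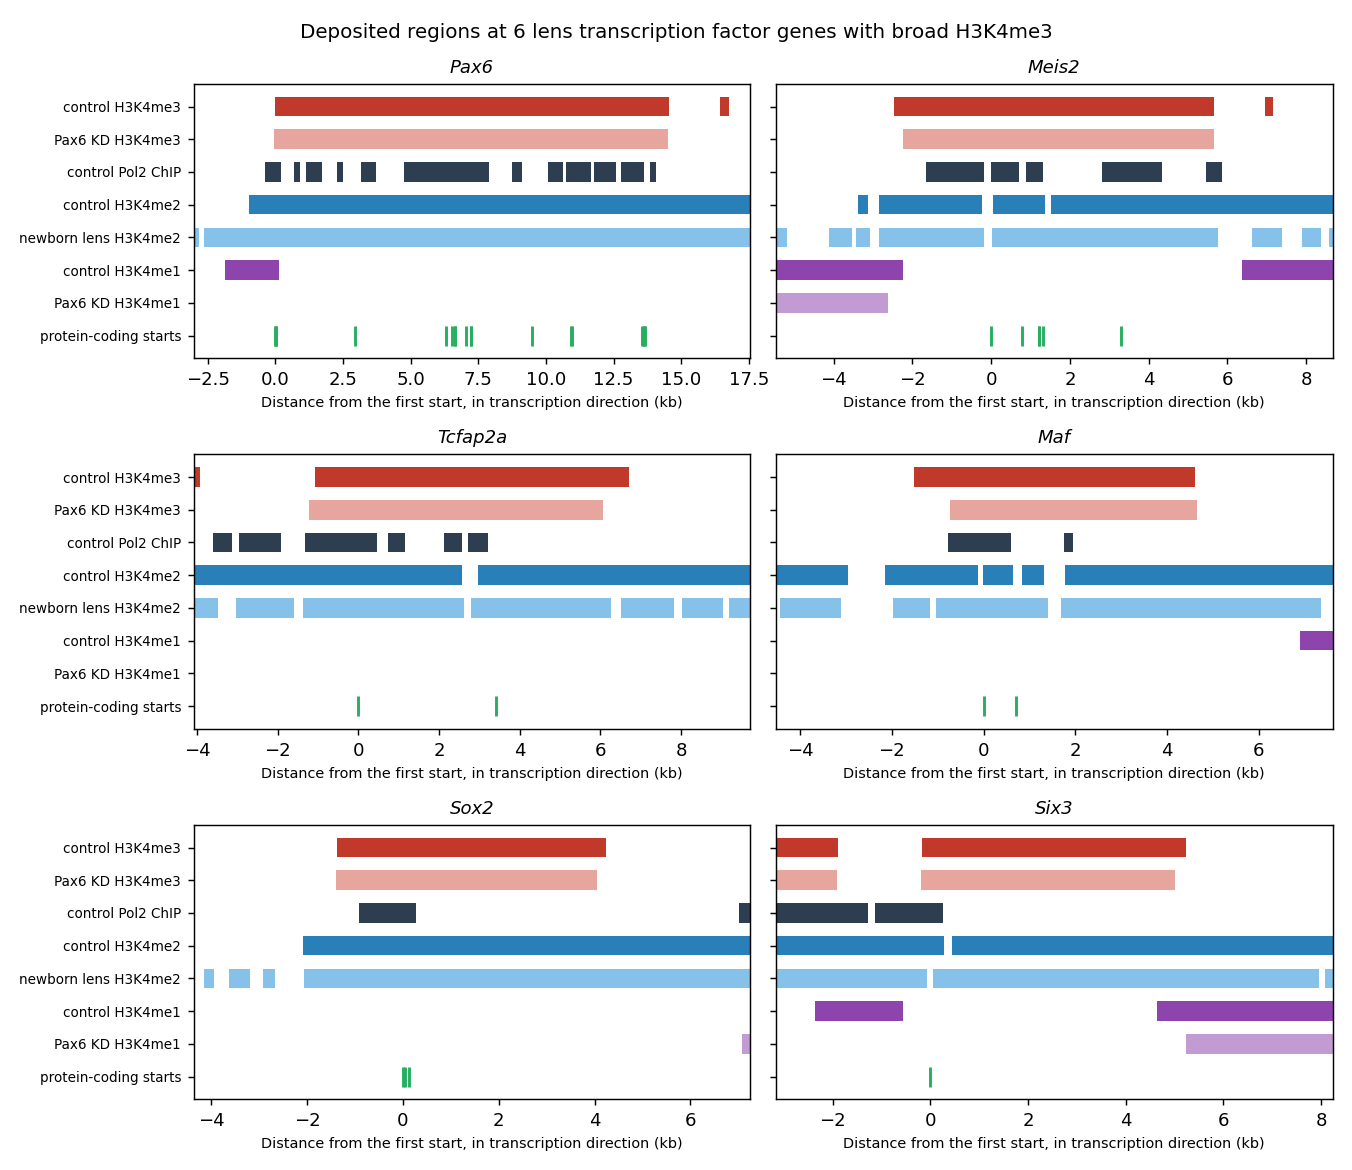
Regions of each list at Pax6, Meis2, Tcfap2a, Maf, Sox2 and Six3, from 3 kb before to 3 kb after the control H3K4me3 domain, with distance from the first protein-coding start in kb. Bars are regions as called by the authors (H3K4me3 after joining) and green ticks are starts, and in each panel the joined H3K4me3 domain is covered mostly by H3K4me2 of cells and of newborn lens, with H3K4me1, where present, toward its edges.

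Genes of the differentiated lens were mostly unmarked. Of 29 lens structural and membrane genes, 5 had H3K4me3 at a start. Cryab, the αB-crystallin chaperone, had 4233 bp in a domain shared with Hspb2, Cdh2 (N-cadherin) 3382 and Vim (vimentin) 3259. Cryaa (αA-crystallin) had 997 bp. The β- and γ-crystallin genes listed had no H3K4me3 domain at a start. Among markers of lens epithelium, 11 of 14 were marked and 9 were broad, while Foxe3, Cdh1 and Gja1 were unmarked. All 14 are also on the lists above, 9 among the transcription factors and 5 among the structural genes, so this count repeats those lists and adds nothing to them. Markers of neurons and retina (0 of 12), blood (0 of 7), endothelium (0 of 5) and muscle (0 of 6) had no H3K4me3 at a start. Of 11 markers of fibroblasts and mesenchyme, 3 were marked, and 1 was broad, Pdgfra with 4860 bp.

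Immediate early genes, which respond within minutes to growth factors, started in broad domains in 7 of 18 marked cases (38.9%, 20.3 to 61.4). They were Btg1 with 5622 bp, Myc with 4515, Nr4a3 with 4286, Dusp4 with 3895, Fosl2 with 3776, Jun with 3607 and Ier3 with 3215. FGF signalling, which drives lens fibre differentiation, gave 5 of 11 marked genes: Dusp6 with 4777 bp, Frs2 with 3801, Spred1 with 3510, Fgfr2 with 3386 and Spry2 with 3070. The domain counted for Fgfr2 also contains a start of Ctbp2, so it cannot be assigned to Fgfr2 alone. Dusp6, Spred1 and Spry2 are feedback inhibitors of the pathway, Frs2 is the docking adaptor and Fgfr2 a receptor. Of the TGF-β and BMP pathway, 6 of 21 marked genes were broad, and these included the inhibitors Smad7, Smad6 with 4611 bp, Tgif1 and Grem1 with 3063 bp, beside the transducer Smad3 with 3418 bp and the ligand Tgfb2 with 3321 bp.

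Cell-cycle regulators gave 7 of 20 marked genes, among them Cdkn1b (p27) with 4583 bp, Gadd45b with 4087 and Trp53 with 3973. Genes of the H3K4 methylation machinery gave 4 of 21: the methyltransferase genes Setd1b with 5284 bp, Mll2 with 4258 and Mll3 with 3068 in the annotation's symbols, and Hcfc1, a subunit shared by several of the complexes, with 3072. The symbol Mll2 stands here for the gene also called Kmt2d. Kmt2b, an enzyme for which the name Mll2 is in use as well, is Wbp7 in the annotation, and its domain of 2344 bp was not broad. Among epithelial and mesenchymal state genes 3 of 9 were broad, Zeb2 with 4799 bp, Cdh2 and Vim. Notch gave 2 of 8, Jag1 with 3971 bp and Maml3 with 3603, and Wnt 1 of 16, Fzd7 with 3878 bp. In these lists the counts are small and the intervals wide.

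Ribosomal protein genes, which nearly every cell transcribes strongly, were broad about as often as marked genes at large. Of 69 marked ribosomal protein genes, 5 were broad (7.25%, 3.14 to 15.9), against 5.81% of all marked genes: Rpl7 with 4619 bp, Rpl3 with 3600, Rpl13a with 3537, Rpl7a with 3017 and Rps12 with 3004. The domain of Rpl7 also contains a start of Rdh10. The likeness holds at the 3000 bp minimum, since the median width of the marked ribosomal protein genes was 2092 bp, against 1550 bp over all marked genes. Of 36 marked clustered histone genes, 3 were broad, all in 1 domain of 3156 bp that spans Hist1h2ai, Hist1h2bl and Hist1h3h. Of 11 marked Hox genes none was broad (0%, up to 25.9), and the widest was Hoxa3 with 2813 bp. A list of 10 genes named for Pax6 binding or for a response to its knockdown was chosen on these samples. Of these, Pax6, Zfp536 and Prox1 were broad. Csf1 had 2903 bp, Plekha1 1838, Tshz2 1746 and Cap2 959, and Farp1, Dhrs3 and Eya4 had no H3K4me3 domain at a start.

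**Figure D3:**
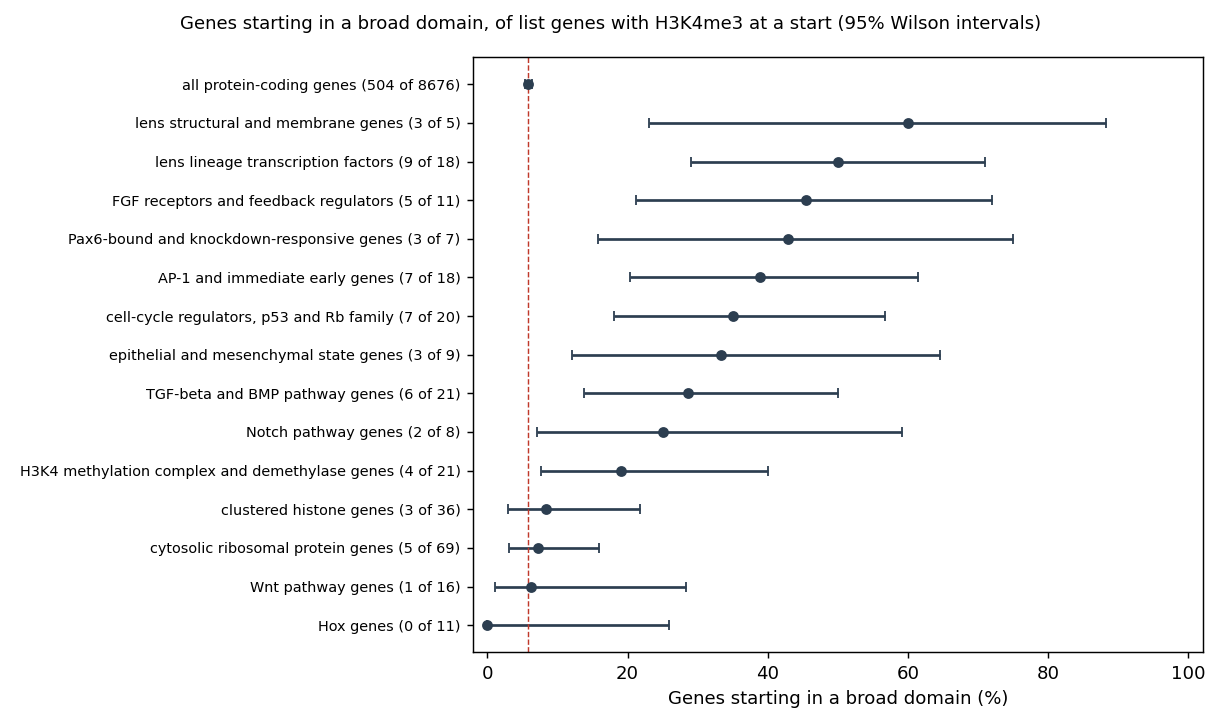
Share of genes that start in a broad H3K4me3 domain, in percent of the genes of each list with any H3K4me3 domain at a start, with counts in brackets and 95% Wilson intervals as bars. The dashed line is the share over all marked protein-coding genes, 5.81%, and the lens lineage transcription factors sit at 50% and the ribosomal protein genes at 7.25%. The lists were chosen with earlier results of these data known, and several share genes.

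Pol2 occupied nearly all broad domains. A Pol2 peak overlapped 435 of 441 (98.6%, 97.1 to 99.4), against 89.3% of all joined domains and 98.6% of those of 2000 to under 3000 bp. A wide domain can overlap a peak more easily. The window within 500 bp of the strongest H3K4me3 summit has the same size for every domain. In it, 387 broad domains had a Pol2 peak (87.8%, 84.4 to 90.5). The share was 87.2% over all joined domains and 92.5% over those of 1000 to under 2000 bp. Occupancy at the summit was thus about as frequent in broad domains as over all joined domains. The highest Pol2 fold enrichment over background within these 500 bp, where there was a peak, had a median of 19.1 in broad domains, 17.6 in domains of 2000 to under 3000 bp, 15.4 in those of 1000 to under 2000 bp and 9.07 under 500 bp. Over whole domains the medians were 20.5, 17.6, 15.3 and 9.30, but a wide domain holds more Pol2 peaks from which the highest is taken. To a lesser degree this also holds within 500 bp of the summit. There, the mean number of Pol2 peaks was 1.20 in broad domains and 1.05 in those under 500 bp, where there was a peak.

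Pol2 also covered more bases of a broad domain, with a median of 1943 bp against 1177 bp in domains of 2000 to under 3000 bp, but not a larger share of its length (51.9% against 50.1%). Of the domains with Pol2, 153 held 1 Pol2 peak, 171 held 2, 78 held 3 and 33 held 4 or more. The Pax6 domain held 12, with fold enrichments of 3.43 to 17.7, which together covered 59.7% of it. Over the 441 domains, width and the highest Pol2 fold were hardly related (Spearman's ρ of 0.064, a description over domains of the same libraries).

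The highest Pol2 folds in broad domains were those of Actb (β-actin) with 75.1, Gadd45b with 68.5, the Malat1 domain with 67.7, the domain shared by Znfx1 and 1500012F01Rik with 66.5, Rpl3 with 65.7 and the polyubiquitin gene Ubb with 63.1. Among the lens transcription factors the highest was 28.4, at Maf, followed by Six3 with 27.4, Sox2 with 26.7 and Prox1 with 23.7. Pax6 had 17.7 and Zfp536 6.11. Of the 12 widest domains, that of Malat1 was the only one among these 6 highest folds.

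**Figure D4:**
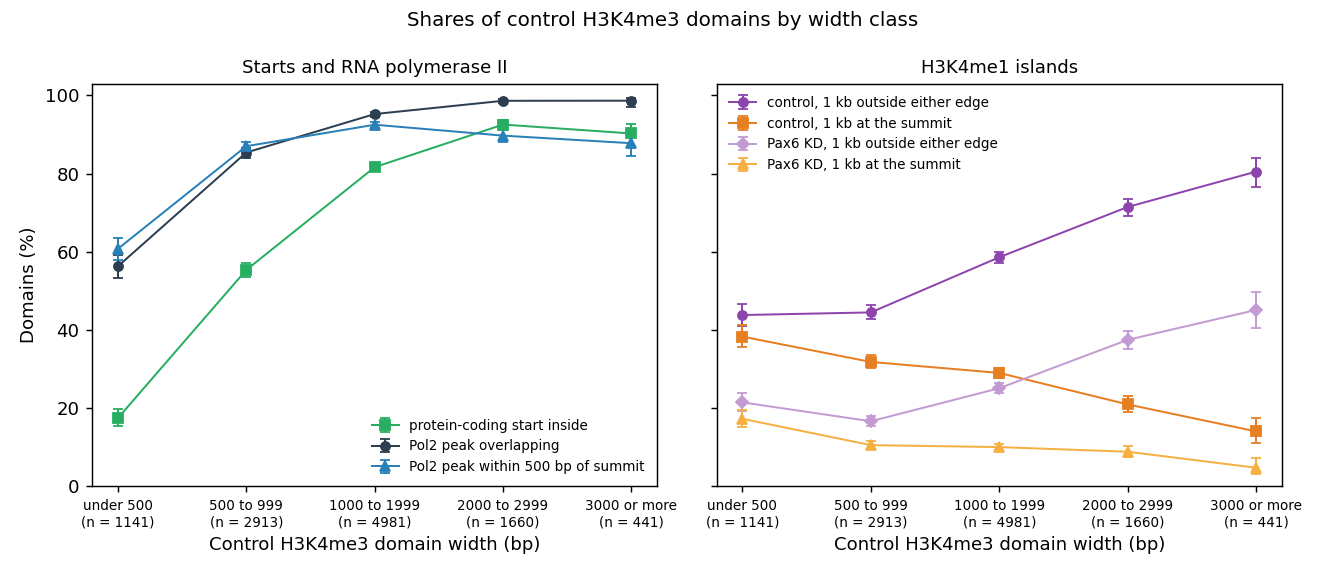
Percent of control H3K4me3 domains in 5 width classes, with 95% Wilson intervals. At left, those with a protein-coding start rise to 92.5% at 2000 to under 3000 bp and stand at 90.2% in broad domains. Those overlapping a Pol2 peak reach 95.2% at 1000 to under 2000 bp and 98.6% in both wider classes. Those with a Pol2 peak within 500 bp of the summit are highest at 1000 to under 2000 bp, with 92.5%, and stand at 87.8% in broad domains. At right, those with an H3K4me1 island within the 1 kb outside an edge rise with width, from 43.8% to 80.5% in control cells. Those with one in the 1 kb at the summit, a window that is wider than the narrowest domains, fall from 38.3% to 14.1%.

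The 6 broad domains without any Pol2 peak were unlike most others, since none contained a protein-coding start. They were between 3110 and 3854 bp wide. Of these, 4 lie on chromosomes 3, 13 and 14 and contain a match to the B box of Pol3 promoters (GGTTCGANNCC, searched on both strands). The B box is the internal promoter element of tRNA genes, which Pol3 transcribes. A B box match was found in 24 of the 441 broad domains (5.44%, 3.68 to 7.97), against 1.63% of all joined domains and 2.23% of those of 2000 to under 3000 bp. A longer domain offers more sequence for a match, with median widths of 3603 bp in broad domains and 2315 bp in that class. Matches per length were not compared, so these shares show no enrichment. The first match of 3 of these domains is given with its surroundings (mm9, B box in capitals), named by the nearest protein-coding gene. No annotated exon overlaps them.
Near Abt1, chr13:23528200-23528289, plus strand: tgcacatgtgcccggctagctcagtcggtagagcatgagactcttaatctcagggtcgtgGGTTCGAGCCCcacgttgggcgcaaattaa
Near Hist1h4h, chr13:23609061-23609150, plus strand: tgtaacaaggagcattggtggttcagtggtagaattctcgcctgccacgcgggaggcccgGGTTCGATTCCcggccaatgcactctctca
Near Olfr750, chr14:51683558-51683647, plus strand: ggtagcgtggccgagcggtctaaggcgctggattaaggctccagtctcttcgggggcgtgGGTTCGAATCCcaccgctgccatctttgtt
In RefSeq, 14 tRNA genes lie between Abt1 and Btn1a1, the nearest genes found in both annotations that flank the first of these domains (chr13:23527179-23531032, 3854 bp, 3 matches). For the domain near Hist1h4h (chr13:23608504-23612039, 3536 bp, 2 matches) the number was also 14, and for that near Olfr750 (chr14:51682552-51685974, 3423 bp, 1 match) 3. In mm9 the flanking genes of these domains lie 33125, 213176 and 13068 bp apart, in this order. The counts are thus of the interval between those genes and not of the domain itself. RefSeq coordinates are of another build and were used only for the order of genes. A further domain without Pol2, near Trim27 (chr13:21258523-21261967, 3445 bp), had no B box match and 9 tRNA genes between its flanking genes, which lie 36363 bp apart. The last (chr1:191996712-191999821, 3110 bp) had neither and lies 2152 bp from Prox1.

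Without a protein-coding start were 43 broad domains in all. Of these, 15 had such a start within 1 kb, 12 contained the start of a transcript of another type, and 16 overlapped no annotated gene. The first 2 groups can share domains. The 16 that overlapped no annotated gene also had no protein-coding start within 1 kb and no start of another transcript type inside. The widest of the 43 was on chromosome 15 (7331 bp, chr15:85499632-85506962), 58450 bp from Ppara, with 4 Pol2 peaks of up to 21.0-fold. Malat1 (chr19:5796304-5803487) followed, and then a domain of 5980 bp 555 bp from Trim7, with 2 B box matches. One of 5533 bp lay over Scd2, a stearoyl-CoA desaturase gene, and one of 4824 bp 10830 bp from Fat1. The domain of 4789 bp on chromosome 4, 54010 bp from Ifne, completes the 6 widest.

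Of the other marks, H3K4me2 was present throughout. Peaks of control cells overlapped 440 broad domains, against 99.1% of all joined domains, those of Pax6 KD cells 441 (99.0%) and those of newborn lens 439 (98.6%). The median share of the domain's length under H3K4me2 was 88.9% in control cells and 94.1% in newborn lens. The lens list covered 100% of the Pax6 and Meis1 domains and 97.4% of the Meis2 domain. At Smad7, the cells had 61.4% and the lens 97.6%.

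H3K4me1 lay beside the broad domains rather than at their summits. Islands of control cells reached into the 1 kb outside either edge at 355 of them (80.5%, 76.5 to 83.9), against 71.5%, 58.6%, 44.5% and 43.8% in the narrower classes from 2000 to under 3000 bp down. Within 1 kb centred on the summit the order was the opposite, with 62 broad domains (14.1%, 11.1 to 17.6) and 21.0%, 29.0%, 31.8% and 38.3% in the narrower classes. This window is wider than the narrowest domains and takes in some of their flanks. What that adds to the order was not tested. Islands overlapped 287 broad domains in control cells (65.1%), against 42.4% of all joined domains, and 131 in Pax6 KD cells (29.7%), against 16.2%. The KD list is shorter at large, with 18417 islands against 38007, and what this difference adds to the counts was not tested. Of the 287 domains with H3K4me1 in control cells, 124 had it in KD cells (43.2%, 37.6 to 49.0), against 33.6% of the 4721 joined domains with H3K4me1 in control cells. In the narrower classes, from 2000 to under 3000 bp down, the shares were 42.4%, 31.2%, 25.1% and 38.5%.

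Pax6 peaks were rare in H3K4me3 domains of any width. Of 441 broad domains, 3 overlapped one (0.680%, 0.232 to 1.98), against 0.314% of all joined domains and 0.663% of those of 2000 to under 3000 bp. They were those of Vcpip1 (3929 bp in control and 4402 bp in KD cells), Nbea (5295 and 5318 bp) and the domain near Hist1h4h described above (3536 and 2963 bp). The Pax6 domain held no Pax6 peak, and the nearest lay 4924 bp beyond its downstream edge.

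The DNA of broad domains was less CG-dense over their whole length than that of somewhat narrower ones. The ratio of observed to expected CpG had a median of 0.670 over whole domains, against 0.716 in those of 2000 to under 3000 bp, and of 0.748 against 0.769 in the 1 kb at the summit. Among the widest it ranged from 0.377 at Malat1 and 0.490 at Pax6 to 0.721 at Tcfap2a.

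In Pax6 KD cells, domains made the same way numbered 10652, of which 372 were broad (3.49%). All but 1 of the 441 control domains overlapped a KD domain, against 94.2% of all joined control domains. The exception, on chromosome 9 from 3000216, over the gene models Gm10722 and Gm11168, had the lowest fold of all broad domains, 1.69, and no control H3K4me2. A KD domain of at least 3000 bp was found at 319 of 441 (72.3%, 68.0 to 76.3). In the reverse direction, 319 of the 372 broad KD domains had a broad control domain (85.8%, 81.8 to 88.9). Because members were chosen for their width in control cells, some narrowing in the other library follows from the choice.

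The change in width was small at most domains. The median ratio of KD to control width was 0.955 (log2 of −0.07) over the 440 domains with a partner and 0.961 (−0.06) over all 10494 joined domains with one. Over domains chosen for their KD width it was 0.994 (−0.01). KD width was within 10% of control width at 280 broad domains (63.6%), against 54.5% of all. It was below control width by any amount at 72.5%, against 63.2%. Past 1.5-fold, 46 broad domains were narrower in KD cells (10.5%), against 8.37% of all, and 2 were wider (0.455%), against 2.20%. Broad domains and all domains thus had nearly the same median ratio.

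**Figure D5:**
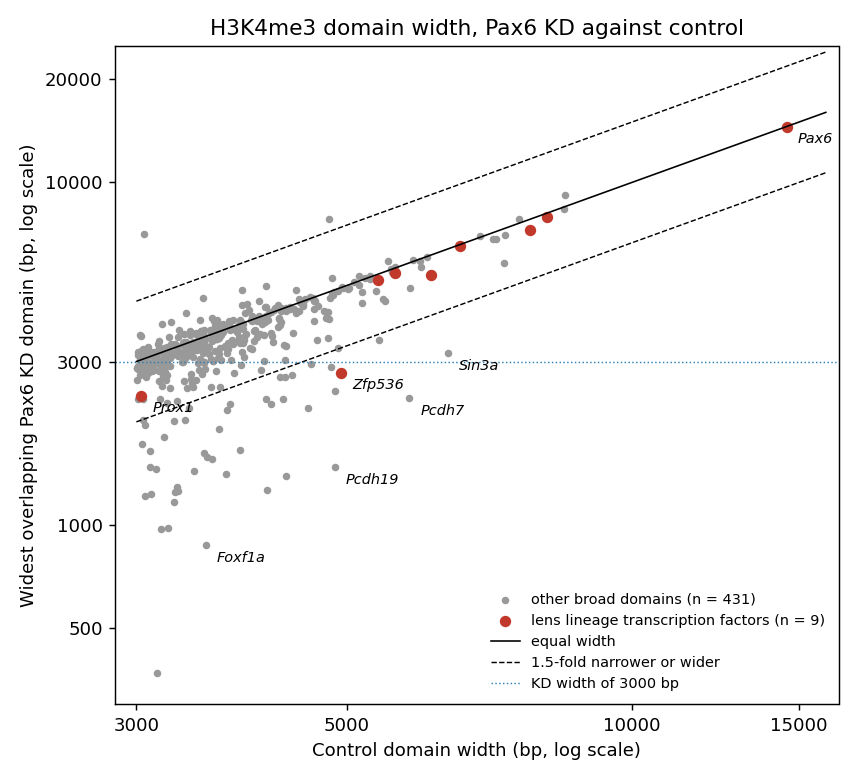
Width of the widest overlapping H3K4me3 domain of Pax6 KD cells against the control width, in bp on log axes, for the 440 broad domains with a partner. The solid line marks equal widths, the dashed lines a 1.5-fold difference and the dotted line a KD width of 3000 bp, and most points lie along the solid line with a tail of 46 domains below the lower dashed line.

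Of 41 domains with at least 5000 bp in control cells, 30 had a KD width within 10% of the control width, and the median ratio was 0.973. At least 3000 bp was measured in KD cells at 40, with Pcdh7 (5820 to 2342 bp) the exception. Pax6 measured 14566 bp in control and 14542 bp in KD cells, where it joined 10 peaks, the strongest of 27.3-fold. Tnrc18 measured 9209 bp in KD cells, Pcdh17 8364, Meis2 7916, Tcfap2a 7281, Lmo4 7837, Brd2 7014, Smad7 6819, Tgif1 6985 and Meis1 6500. The largest difference among the 16 widest was at Sin3a, a corepressor gene, with 6392 bp in control and 3171 bp in KD cells. Fold enrichments are relative to each library's own background, so they were not compared between the lists.

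All 9 lens lineage transcription factors with a broad domain were narrower in KD cells, where 72.5% of all broad domains were. The median ratio was 0.963, against 0.955 over all broad domains, and 7 of the 9 had at least 3000 bp, against 72.3% of all broad domains. Sox2 measured 5432 bp, Six3 5198 and Maf 5374 in KD cells. Zfp536, a zinc finger gene, went from 4935 to 2777 bp (0.563 times) and Prox1 from 3037 to 2387 bp (0.786 times). Both are also on the study's own list, so they are not independent of it. The domain without Pol2 beside Prox1 went from 3110 to 1235 bp. Of the immediate early genes, 6 of 7 had at least 3000 bp, with Nr4a3 (4286 to 2334 bp) the exception, and the median ratio was 0.940. Of the cell-cycle regulators, it was also 6 of 7, and Cdkn1b went from 4583 to 2942 bp. Over all broad domains the share was 72.3%. The TGF-β and BMP genes had a median ratio of 0.984 and the FGF genes of 0.927.

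Of the 122 broad domains with no KD domain of 3000 bp, 86 were under 3500 bp wide in control cells and 17 had at least 4000 bp. Their median width was 3227.5 bp in control and 2715 bp in KD cells, leaving out the 1 without a partner. The lowest ratio was at the histone genes Hist1h2ai, Hist1h2bl and Hist1h3h, with 3156 bp in control and 370 bp in KD cells. Foxf1a, a forkhead factor of mesoderm, went from 3552 to 873 bp, and a domain without a protein-coding start near Bptf from 3242 to 982 bp. Pcdh19, a protocadherin gene, went from 4862 to 1474 bp, Gcnt2 from 3187 to 975 bp and Lzts2 from 4117 to 1265 bp. Itpripl2 (4310 to 1386 bp) and the domain shared by Abhd13 and Lig4 (3289 to 1166 bp) followed. All 8 had joined 3 or 4 control peaks.

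The way in which peaks join moved with these ratios. Broad domains of a single control peak had a median log2 ratio of −0.06, those of 2 peaks −0.04, those of 3 peaks −0.11 and those of 4 or more −0.17. None of the 60 single-peak domains was narrower past 1.5-fold. A gap that exceeds 1000 bp in one library splits a domain there, and 25 broad domains overlapped 2 or more KD domains. The part of joining in the narrow ratios was not tested further than by the other joining distances.

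Wider in KD cells were few. A domain 1344 bp from Nr2f1, over the noncoding A830082K12Rik, measured 3053 bp in control and 7069 bp in KD cells, and the one near Ifne 4789 and 7803 bp. These were the only ones past 1.5-fold. Slco4a1 measured 3529 and 4597 bp, Setd5 3874 and 4846, the domain of Ctbp2 and Fgfr2 3386 and 4155, that of Cpeb2 and Gm7854 4105 and 4999, that of Col4a1 and Col4a2 3195 and 3852, and Cdk13 3265 and 3906. In addition, 53 domains were broad in KD cells only, with a median of 3085 bp against 2721 bp in control cells. The widest of these lies upstream of Six3, with 4574 bp against 2365 bp, and joins what in control cells were 2 domains, of 2365 and 1200 bp. Car2 (4290 against 2288 bp), the retinaldehyde dehydrogenase gene Aldh1a1 (3839 against 2591 bp) and Fzd6 (3687 against 2947 bp) were others.

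Counted in bp, the downstream edge moved somewhat more than the upstream one. In the 297 domains with 1 gene, those that widened included, the KD edge lay a median of 45 bp inside the control edge on the upstream side and 106 bp inside it on the downstream side. It lay over 500 bp inside at 44 upstream and 55 downstream edges. It lay over 500 bp outside at 2 and 5. Over the 297, the downstream edge moved inward more in 167 and the upstream one in 129. In the 227 of these domains that were narrower in KD cells, the medians were 64 bp upstream and 177 bp downstream. There the downstream edge moved inward more in 139 and the upstream one in 87. The downstream side is also the longer one, with a median of 2686 bp against 952 bp in control cells. The movement was not set against that length.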

How the data were processed

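ChIP-seq of αTN4 cells and newborn lens was analysed from lists of regions, 1 library per condition. RNA-seq was left out. Alignment to mm9 was done by the authors with Bowtie. MACS2 gave their lists of H3K4me3, H3K4me2, Pol2 and Pax6 peaks, and SICER gave the H3K4me1 islands. For peaks, the authors deposited the fold enrichment (a ratio over background) and the −log10 of p and q. For islands, the deposited values are the count of reads in ChIP and control, the fold and a p-value, of which only positions were used. Peak names in the H3K4me2 lists hint at pooled replicates. Island widths are multiples of 200 bp.

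Peaks were joined where the gap was at most 1000 bp. Overlap means at least 1 bp. The KD width is that of the widest overlapping KD domain. Starts are those of protein-coding transcripts in GENCODE M1 (45993 positions, 22202 genes, same build). Folds were compared within one list only. MACS2 lists give no depth. Joining and overlaps were tested on simulated data.

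Members and lists were chosen with earlier results of these data known. Genes were named by rule: the 12 widest, 3 on either side of 3000 bp, the 8 lowest and 8 highest width ratios, the 8 widest KD-only domains, the 6 highest in Pol2, those without Pol2, the 6 widest without a start, those with Pax6, up to 4 per list or all of 6 or fewer, and the study's 10 genes. Others that are named (the remaining list members, Sin3a, Pcdh7, unmarked genes) were chosen after their values were seen. Sox1 and Spry3 matched no annotated gene. The plan named sequences centred on the summit, which lie in untranslated exons, so the nearest free stretch was used. A few genes and 1 sequence are not reported here. The B box search and the RefSeq order of tRNA genes (GRCm38.p6) were added after seeing the data. Tools were pysam 0.24.0, pandas 2.3.3, NumPy 2.4.6, matplotlib 3.10.9 and SciPy 1.17.1, with Python 3.11.15.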

Additional observations from a re-analysis of the deposited data

How the results depend on the processing

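Counts of broad domains follow the rule. Without joining there were 115, with a minimum of 2000 bp 2101 and with 4000 bp 134, while joining at 500 bp gave 346 and at 2 kb 523. The share with a KD domain of at least the same minimum was 60% without joining, 67.9% at 500 bp, 77.6% at 2 kb, 76.5% with as many control as KD peaks, 80.1% at a minimum of 2000 bp and 66.4% at 4000 bp. The median log2 width ratio was −0.13 without joining, −0.043 with as many control as KD peaks and −0.049 at a minimum of 2000 bp. Pol2 was at 87.8% by the summit, 90.7% with peaks at or above the list median fold, and 100% at a minimum of 4000 bp. Protein-coding starts were at 77.4% without joining, 79.4% with the 5′ end of the gene, 93.0% with any transcript and 93.7% within 1 kb. CpG observed over expected was 0.644 without joining, 0.651 at 2 kb, 0.707 at a minimum of 2000 bp and 0.748 at the summit. Lens lineage transcription factors in broad domains made up 30.0% of those annotated, and 13.3% without joining. H3K4me1 overlapped 59.1% at a minimum of 2000 bp. Of the other 39 values, 4 were counts of domains (346 to 523) within 1.5 times the 441 reported, and 35 lay within the interval of the value reported. No ratio changed direction. Widths of single domains moved with joining: Pax6 measured 3450 bp without it, which put it at rank 61 of all regions, not the first, 11493 bp at 500 bp, 16799 bp at 2 kb and 13070 bp with peaks of −log10 q of at least 5, and Sin3a 1873 bp at 500 bp. No replicate could be left out. No paired analysis was possible because each ChIP-seq condition has 1 library. MACS2 lists give no depth, so a width cannot be told apart from the depth at which faint edges are called.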
